A study of Mus musculus with 32 samples.

Results

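The genes described are 8 members of the MHC class II antigen presentation pathway, taken by symbol from the 47643 Ensembl gene IDs of a count table of epididymal white adipose tissue (eWAT) and liver. They are the chains of the peptide-binding molecules, H2-Aa, H2-Ab1 and H2-Eb1, the invariant chain Cd74, the peptide editor H2-DM made from H2-DMa, H2-DMb1 and H2-DMb2, and the transactivator Ciita. They were chosen by their measured values, low under corticosterone in both tissues and differing between the diets. Their changes with that hormone, the difference of these between the diets, and the diet difference within corticosterone-treated fat carry no p-value. These are given as a description.

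MHC class II molecules sit on the surface of dendritic cells, B cells and some macrophages, where they show peptides from engulfed material to CD4+ T cells. An alpha and a beta chain pair in the endoplasmic reticulum around CD74, which fills the groove and steers the pair to endosomes. There cathepsins cut CD74 down, and H2-DM trades the last fragment for a peptide. CIITA binds no DNA itself. It docks on factors (RFX, CREB and NF-Y) at the X and Y boxes of class II promoters and is the switch for the whole set. Glucocorticoids such as corticosterone (cort), the main adrenal steroid of mice, are known to restrain antigen presentation.

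The animals were male C57BL/6J mice (the labels give C57BL/6), 10 weeks old in the design of the series, and each group held 4 libraries per tissue. A normal-protein diet (NPD, 20% of energy as protein) or a high-protein diet (HPD, 60%) was fed. The HPD replaced starch with protein, so more protein and less carbohydrate cannot be told apart, and for 7 days the drinking water held either cort or its ethanol vehicle (veh). The groups are named by treatment and diet, such as Veh NPD or Cort HPD. Libraries were made from pieces of whole tissue with a 3′ tag kit (QuantSeq), in which a transcript gives tags from its 3′ end whatever its length, so levels are given as CPM (counts scaled to a common library total) and compared between genes on that scale. Library totals ran from 9794683 to 18057936 counts in eWAT and from 8933307 to 17447524 in liver. The liver library Veh HPD replicate 4 stood apart from its group and was left out of the means, folds and tests, so that group has n = 3 in liver. The liver library Cort HPD replicate 1 also stood apart, with a mean chi-squared per gene of 118 to 153 against the others of its group, which were at 15.3 to 25.6 among themselves, but it was kept. The eWAT library Cort HPD replicate 4 held 5879 CPM of 6 epididymis markers against 10.8 CPM or less in each of the other eWAT libraries, and the eWAT library Veh NPD replicate 3 held 34.6 CPM of 8 B cell markers against 5.08 CPM or less in the others.

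Of the members, 6 lie within the H2 complex on mouse chromosome 17 (GRCm38, GENCODE vM21): H2-DMa (34119541 to 34139101), H2-DMb2 (34143307 to 34151555), H2-DMb1 (34153072 to 34160230), H2-Ab1 (34257689 to 34269419), H2-Aa on the minus strand (34282744 to 34287823) and H2-Eb1 (34305867 to 34316674). Ciita lies on chromosome 16 (10480059 to 10528418) and Cd74 on neither chromosome. RefSeq promoter entries (GRCm38.p6, from 250 bases before to 50 after a start) were found for 5 of the 8 members. The stretches before the RefSeq start of an alpha chain gene, a beta chain gene and an H2-DM gene are shown because they carry the letters of the boxes on which CIITA docks. Capitals mark GATTGG, the core of the Y box (CCAATC on the other strand), and TGACGTCA, the cAMP response element that CREB binds.

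H2-Aa, chr17:34287824-34287953, minus strand: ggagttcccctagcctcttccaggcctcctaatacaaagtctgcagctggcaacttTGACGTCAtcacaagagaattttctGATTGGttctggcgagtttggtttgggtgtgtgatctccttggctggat
H2-Eb1, chr17:34305737-34305866, plus strand: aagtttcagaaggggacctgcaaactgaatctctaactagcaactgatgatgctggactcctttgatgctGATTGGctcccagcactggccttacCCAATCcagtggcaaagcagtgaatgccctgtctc
H2-DMb2, chr17:34145119-34145235, plus strand: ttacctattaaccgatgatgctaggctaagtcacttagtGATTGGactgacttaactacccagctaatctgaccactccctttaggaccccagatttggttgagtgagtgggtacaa

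Searched on both strands over the whole entries, GATTGG began 49 bases before the start of H2-Aa, 60 before H2-Eb1, 62 before H2-DMb1 and 91 before H2-DMb2, and on the other strand 35 bases before H2-Eb1. The stretch printed for H2-DMb2 ends 13 bases short of the RefSeq start, where an annotated exon begins. This stretch lies inside the GENCODE span given above for H2-DMb2, not before the start of that span. GATTGG was also 199 bases before one of the 2 starts listed for H2-DMa. Of all 32851 promoter entries, 16.1% hold GATTGG somewhere. TGACGTCA was found in H2-Aa, 74 bases before the start, and 1.79% of all entries hold it. A match is a run of letters and says nothing of what was bound in these tissues.

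In eWAT of veh-treated mice the 4 leading genes were abundant. H2-Aa was at 552, 553, 440 and 464 CPM in the 4 Veh NPD libraries and at 340, 364, 538 and 334 CPM in Veh HPD. With cort it was at 26.1, 26.7, 15.2 and 31.4 CPM on the NPD and at 34.0, 41.6, 55.2 and 58.7 CPM on the HPD. No cort library came near a veh library on either diet.

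The mean of H2-Aa, the alpha chain of the I-A molecule, was 502 ± 59.1 CPM (SD, n = 4) in Veh NPD and 24.9 ± 6.86 CPM (SD, n = 4) with cort on that diet, 20.2-fold lower (log2 -4.34, SE 0.23). On the HPD it was 394 ± 97.1 CPM (SD, n = 4) and 47.4 ± 11.6 CPM (SD, n = 4), 8.30-fold lower (log2 -3.05, SE 0.22).

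H2-Ab1, the beta chain that pairs with H2-Aa, was at 406, 377, 346 and 347 CPM in Veh NPD and at 268, 269, 367 and 178 CPM in Veh HPD. With cort it was at 15.8, 21.8, 15.9 and 18.5 CPM on the NPD and at 31.8, 30.2, 39.4 and 37.6 CPM on the HPD. It was 20.5-fold lower with cort on the NPD (log2 -4.36, SE 0.18) and 7.77-fold lower on the HPD (log2 -2.96, SE 0.17). The groups separated as they did for H2-Aa, and the cort libraries of the HPD all lay above those of the NPD.

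H2-Eb1, the beta chain of the I-E molecule, was at 465, 413, 446 and 398 CPM in Veh NPD and at 301, 287, 439 and 217 CPM in Veh HPD. With cort it was at 15.9, 21.7, 14.2 and 22.5 CPM on the NPD and at 19.4, 24.2, 41.5 and 52.6 CPM on the HPD. It had a log2 fold change of -4.54 (SE 0.32) on the NPD and -3.17 (SE 0.30) on the HPD. H2-Ea-ps, the annotated partner locus of the I-E alpha chain, had no count in any eWAT library. C57BL/6 mice are known not to make this chain.

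Cd74 was at 369, 272, 306 and 300 CPM in Veh NPD and at 268, 278, 341 and 215 CPM in Veh HPD. With cort it was at 16.8, 23.0, 12.1 and 25.0 CPM on the NPD and at 31.1, 22.8, 44.3 and 68.2 CPM on the HPD. Its log2 fold change was -4.02 (SE 0.33) on the NPD and -2.72 (SE 0.31) on the HPD, slightly smaller than those of the chains it escorts. The ratio of Cd74 to H2-Ab1 ran from 0.720 to 0.909 in Veh NPD and from 0.757 to 1.35 in Cort NPD, and that of H2-Aa to H2-Ab1 from 1.27 to 1.47 and from 0.955 to 1.70, so the ratios overlapped between the groups while all of these genes were many times lower.

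**Figure D1:**
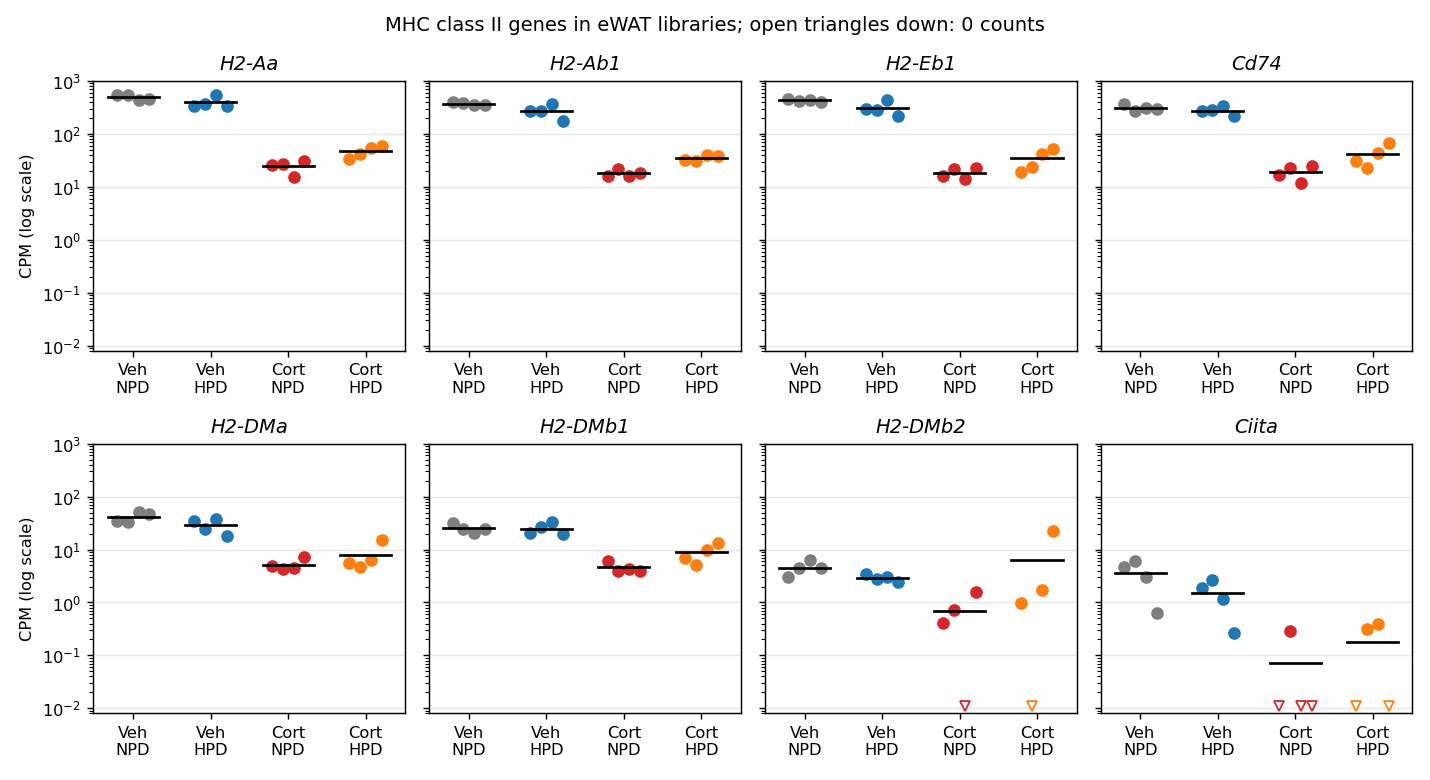
CPM of each of the 8 class II genes in the 16 eWAT libraries (log scale), by group. Points are libraries, black lines are group means of 4 libraries, and open triangles at the foot are libraries with no count. The cort libraries of H2-Aa, H2-Ab1, H2-Eb1 and Cd74 lie between 12.1 and 68.2 CPM, below every veh library, and one Cort HPD library of H2-DMb2 stands at 22.4 CPM.

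The genes of the peptide editor were an order of magnitude less abundant in veh-treated fat and had smaller log2 changes. H2-DMa, the alpha chain of H2-DM, was at 34.3, 33.5, 50.5 and 46.6 CPM in Veh NPD and at 4.82, 4.22, 4.5 and 7.21 CPM in Cort NPD (log2 -3.0, SE 0.33). On the HPD it was at 34.9, 24.3, 37.1 and 18.2 CPM with veh and at 5.65, 4.74, 6.38 and 14.9 CPM with cort, a log2 fold change of -1.83 (SE 0.31). The annotated span of H2-DMa overlaps Brd2, a gene of 121 to 223 CPM in eWAT, and how the counting treated shared tags is not given in the sources used here.

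H2-DMb1, the main beta chain of H2-DM, was at 31.4, 24.9, 20.4 and 24.7 CPM in Veh NPD and at 6.11, 4.0, 4.26 and 4.01 CPM in Cort NPD (log2 -2.46, SE 0.26). On the HPD it was at 20.9, 27.0, 32.5 and 19.3 CPM with veh and at 6.94, 5.16, 9.84 and 13.3 CPM with cort, a log2 fold change of -1.49 (SE 0.25). Both groups of cort-treated mice lay below both groups of veh-treated mice.

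H2-DMb2, the second beta chain gene, was at 3.03, 4.39, 6.45 and 4.41 CPM in Veh NPD and at 0.407, 0.727, 0 and 1.60 CPM in Cort NPD. On the HPD it was at 3.43, 2.77, 3.06 and 2.40 CPM with veh and at 0.968, 0, 1.73 and 22.4 CPM with cort. The last of these is Cort HPD replicate 4, the library with the epididymis markers, and it alone sets the direction: the log2 fold change on the HPD was 1.12 (SE 1.11) with it and -1.64 without it. The part of epididymis RNA in that value was not tested. The reference transcripts of H2-DMb1 and H2-DMb2 are identical at 92.8% of their aligned bases over their whole length and at 79.3% over the last 300 bases, where 3′ tags fall. The longest identical run in those last bases is 23. How shared tags were aligned and counted is not given, so the split of tags between the pair is uncertain.

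Ciita was rare even where the class II genes were abundant. It had 77, 80, 46 and 9 counts in Veh NPD and 29, 51, 19 and 4 in Veh HPD, which is 0.62 to 5.96 CPM and 0.259 to 2.66 CPM. With cort it had 0, 4, 0 and 0 counts on the NPD and 0, 3, 6 and 0 on the HPD. Over the group that is 212 counts against 4 on the NPD, a depth-scaled ratio of 47.1 (95% exact interval 18.1 to 174), and 103 against 9 on the HPD, a ratio of 9.01 (4.56 to 20.3). These intervals cover counting error only and leave out the spread between mice. Replicate 4 had the fewest Ciita counts in both veh groups, and on the HPD it lay below the cort libraries with 3 and 6 counts on the CPM scale.

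By edgeR's quasi-likelihood test at an adjusted p under 0.05 over all 15187 genes tested, 7 of the 8 members were lower with cort on the NPD, where 3.93% of all genes were, and 6 of 8 on the HPD, where 2.63% were. All 8 passed the filter on low counts. H2-DMb2 on both diets and Ciita on the HPD did not pass the threshold. On the NPD every cort library was below every veh library for 8 of 8 members (7.39% of all genes), and on the HPD for 6 of 8 (5.39%). The median log2 fold change of the 8 members was -4.18 on the NPD and -2.84 on the HPD, beside -0.024 and -0.0025 over all genes tested. Both sets of values took part in the choice of these genes and are no test of them. In these bulk libraries fewer cells of a type and less RNA per cell cannot be told apart.

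**Figure D2:**
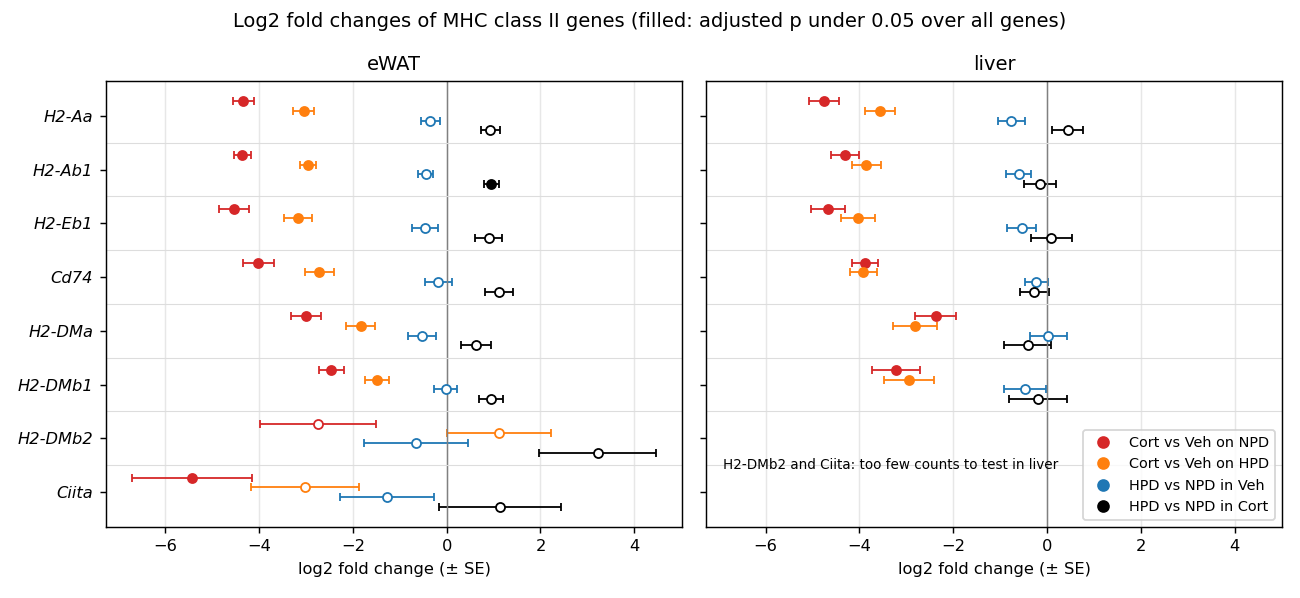
Log2 fold change of each class II gene in eWAT (left) and liver (right) for cort over veh on each diet and for HPD over NPD in veh and in cort. Bars are standard errors, filled points passed an adjusted p under 0.05 over all genes of the tissue, and H2-DMb2 and Ciita had too few counts in liver. The cort values of H2-Aa, H2-Ab1, H2-Eb1 and Cd74 lie between -4.76 and -2.72, and their diet values lie nearer to 0, while H2-DMb2 in eWAT stands at 3.22 for the diet in cort.

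The diet alone moved none of the members past the threshold in veh-treated fat. For HPD against NPD in veh, 0 of 8 passed by edgeR's quasi-likelihood test (0.0593% of all genes did), 1 had an unadjusted p under 0.05, and DESeq2 and limma voom called 0 each. All 8 point estimates were negative. The largest among the abundant genes were H2-Eb1 at 311 ± 92.9 against 431 ± 30.3 CPM (SD, n = 4 each), log2 -0.47 (SE 0.28, adjusted p = 0.75), and H2-Ab1 at 271 ± 76.9 against 369 ± 28.6 CPM (SD, n = 4 each), -0.45 (SE 0.16, adjusted p = 0.38). Veh HPD replicate 4 was the lowest of its group for 8 of 8 members and Veh HPD replicate 3 the highest for 6, so the spread within the Veh HPD group ran across the whole set at once. Replicate 4 also stood apart over all genes, with a mean chi-squared per gene of 57.7 to 68.0 against the others of its group. They were at 22.5 to 22.9 among themselves. Replicate 4 was kept, so it takes part in the Veh HPD means.

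Within cort-treated fat all 8 point estimates were positive on the HPD. H2-Ab1 was at 34.8 ± 4.44 CPM against 18 ± 2.83 CPM on the NPD (SD, n = 4 each), 1.93-fold higher (log2 0.95, SE 0.16). H2-Aa was 1.91-fold higher (log2 0.93, SE 0.21), H2-Eb1 1.86-fold (log2 0.90, SE 0.29), Cd74 2.18-fold (log2 1.12, SE 0.30), H2-DMb1 1.93-fold (log2 0.95, SE 0.26) and H2-DMa 1.55-fold (log2 0.63, SE 0.32). The value of H2-DMb2 was 3.22 (SE 1.25) and that of Ciita 1.14 (SE 1.30). For H2-Aa and H2-Ab1 every HPD library was above every NPD library (2 of 8 members, 3.02% of all genes), while the libraries of H2-Eb1 and Cd74 overlapped. Of the 8 members, 1, H2-Ab1, passed the threshold, beside 0.204% of all genes in this direction, and by limma voom none did. Without Cort HPD replicate 4, the library with epididymis markers, the log2 difference was 0.91 for H2-Ab1, 0.81 for H2-Aa, 0.78 for Cd74, 0.68 for H2-DMb1, 0.62 for H2-Eb1, 0.45 for H2-DMb2 and 0.12 for H2-DMa. For Ciita it was larger than with that library, at 1.57. H2-Ab1 alone still passed. Without Cort HPD replicate 2 there were 3 members past the threshold. The cort level of H2-Ab1 on the HPD remained 7.77-fold below the veh level of that diet.

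The difference between the diets in the size of the cort effect (the diet by cort interaction) was positive for all 8 members in eWAT, with log2 values from 0.97 for H2-DMb1 to 3.87 for H2-DMb2. H2-Ab1 (1.40, SE 0.23) was 1 of the 2 genes of the whole table past the threshold there, 0.0132% of those tested. Its value takes in both a lower veh level and a higher cort level on the HPD. The members were chosen with the interaction values known, so this call is no test of them, and limma voom called none. With 1 library left out at a time, no member passed in 8 of 16 fits, among them the fit without Cort HPD replicate 4 (1.36 for H2-Ab1).

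Liver held much less class II RNA. In Veh NPD the liver means were 6.70-fold lower than eWAT for H2-Aa, 9.80-fold for H2-Ab1, 14.5-fold for H2-Eb1 and 9.43-fold for Cd74, each tissue scaled on its own. The order also differed, since H2-Aa led in both tissues but H2-Eb1 was above H2-Ab1 in each of the 4 Veh NPD libraries of eWAT, with a ratio of 1.10 to 1.29, and below it in each of the 4 in liver, with a ratio of 0.666 to 0.944.

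With cort, liver H2-Aa went from 60.2, 101, 60.3 and 78.4 CPM to 3.08, 1.12, 2.35 and 4.26 CPM on the NPD, a log2 fold change of -4.76 (SE 0.33). On the HPD it went from 40.1, 36.8 and 55.8 CPM to 5.93, 2.79, 3.29 and 3.12 CPM, a log2 fold change of -3.56 (SE 0.32). All veh libraries lay far above all cort libraries.

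Liver H2-Ab1 was at 35.6, 63.7, 26.2 and 25.0 CPM in Veh NPD, 27.7, 20.7 and 25.7 CPM in Veh HPD, 2.46, 1.38, 1.74 and 1.95 CPM in Cort NPD and 1.19, 1.34, 1.91 and 2.38 CPM in Cort HPD. Cd74 was at 39.4, 45.2, 26.9 and 20.6 CPM, then 33.1, 21.1 and 30.1 CPM with veh, and at 3.16, 1.73, 1.29 and 2.74 CPM, then 1.53, 1.80, 1.99 and 2.08 CPM with cort. The cort libraries of the 2 diets overlapped for both genes. H2-Eb1 was at 27.7, 49.7, 24.8 and 16.7 CPM, then 22.3, 13.7 and 25.1 CPM with veh, and at 1.62, 1.12, 0.681 and 1.22 CPM, then 1.10, 0.756, 1.91 and 1.26 CPM with cort. The log2 fold changes on the NPD and HPD were -4.30 (SE 0.30) and -3.86 (SE 0.31) for H2-Ab1, -4.66 (SE 0.37) and -4.03 (SE 0.37) for H2-Eb1, and -3.87 (SE 0.28) and -3.92 (SE 0.29) for Cd74.

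H2-DMa was at 1.52 to 4.35 CPM with veh and 0.254 to 0.693 CPM with cort, with log2 fold changes of -2.37 (SE 0.44) on the NPD and -2.82 (SE 0.46) on the HPD. H2-DMb1 was at 2.23 to 5.31 CPM with veh and 0.0581 to 0.918 CPM with cort, with values of -3.21 (SE 0.51) and -2.94 (SE 0.54). These rest on 1 to 12 counts in each cort library. Ciita and H2-DMb2 did not pass the filter in liver. Ciita had no more than 3 counts in any veh library of the groups and 0 in all 8 cort libraries, so no fold is given. H2-DMb2 had 25 counts over Veh NPD against 1 over Cort NPD, a depth-scaled ratio of 29.8 (95% exact interval 4.88 to 1230), and 21 against 2 on the HPD, a ratio of 13.2 (3.22 to 116), with counting error only.

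**Figure D3:**
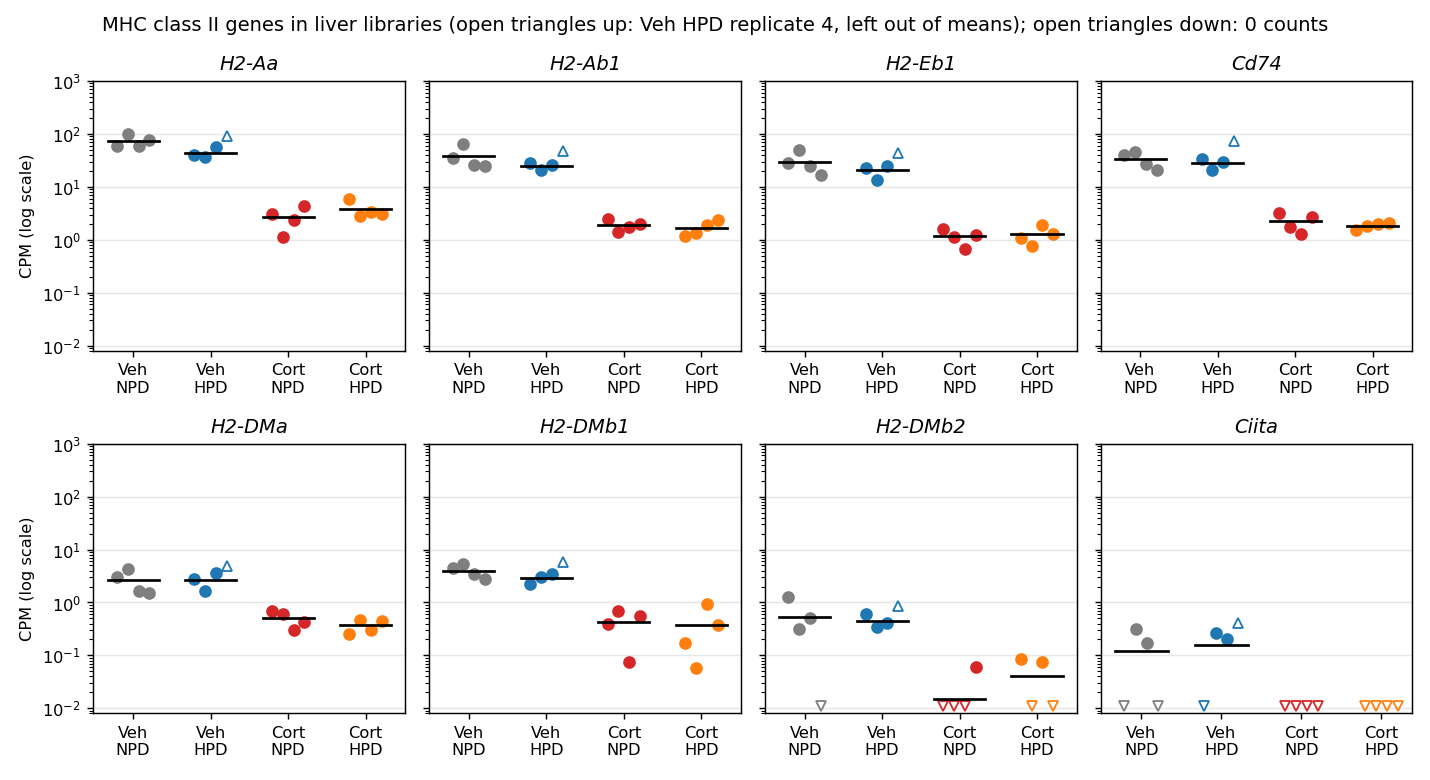
CPM of each of the 8 class II genes in the 16 liver libraries (log scale), drawn as for eWAT, with Veh HPD replicate 4 as an open triangle pointing up that takes no part in the means. The cort libraries of H2-Aa, H2-Ab1, H2-Eb1 and Cd74 lie between 0.681 and 5.93 CPM, and the left-out library is at 72.2 CPM for Cd74, the highest of any liver library.

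All 6 members tested in liver were past the threshold and lower with cort on both diets, where 5.79% and 5.14% of the 12391 genes tested were, and their veh and cort libraries did not overlap (9.09% and 10.5%). Over these 6 members the median was -4.09 (log2) on the NPD and -3.71 on the HPD, beside -0.0052 and -0.0042 over all genes. With all 16 liver libraries in the fit the same 6 of 6 members passed on both diets, and the HPD values lay between -4.37 and -3.08. Without Cort HPD replicate 1 all 6 also passed, with H2-Aa at -3.85 on the HPD.

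No diet difference of a class II gene passed the threshold in liver. For HPD against NPD in veh, edgeR's test called 0 of 6 (0.169% of all genes), 2 had an unadjusted p under 0.05, and DESeq2 and limma voom called 0. H2-Aa was lowest relative to the NPD, at 44.2 ± 10.2 CPM (SD, n = 3) against 74.9 ± 19.2 CPM (SD, n = 4), log2 -0.76 (SE 0.29, adjusted p = 0.40). Without the left-out library the groups did not overlap (4.7% of all genes were lower in this way). That library, Veh HPD replicate 4, was at 93.2 CPM, within the 60.2 to 101 CPM of Veh NPD. Under alternatives other than leaving out 1 library, the log2 value of H2-Aa ran from -0.77 to -0.41. In cort-treated liver 0 of 6 passed while 5.88% of all genes did, with 0 at an unadjusted p under 0.05 and 0 by DESeq2 and limma voom. The log2 values ran from -0.42 for H2-DMa (SE 0.51, adjusted p = 0.69) to 0.44 for H2-Aa (SE 0.33, adjusted p = 0.48), the latter 0.14 without Cort HPD replicate 1, and with SEs of up to 0.61 modest changes in the rarer genes were not detectable at this depth. The liver diet by cort interaction, given as description, ran from -0.45 for H2-DMa (SE 0.65) to 1.20 for H2-Aa (SE 0.44). It was positive for 4 of the 6 members. None passed, beside 14 of all 12391 genes tested. The interaction of H2-Aa was 1.28 (SE 0.29) in eWAT, and 0.90 in liver without Cort HPD replicate 1.

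The rest of the pathway, 45 matched genes in 7 lists, had a smaller share of genes past the threshold with cort than the members. In eWAT 40 of the 45 could be tested, and with cort on the NPD 9 were lower and 2 higher (11 of 40, beside 7.98% of all genes in either direction). On the HPD 3 were lower and 2 higher (beside 6.09%). In liver 36 could be tested, with 6 lower and 2 higher on the NPD (beside 12.6%) and 3 lower and 1 higher on the HPD (beside 9.89%). The lists were drawn up with earlier results of these data known.

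Among the factors that CIITA docks on (RFX, CREB and NF-Y subunits), 1 of 7 changed in eWAT with cort on the NPD. This was Nfyb, an NF-Y subunit, which rose by 0.53 on the log2 scale (SE 0.14) and passed the threshold. In liver Nfyb also passed, but it fell on the NPD by 0.67 (SE 0.14). The median of the list was -0.21 in eWAT and -0.11 in liver, against -4.18 and -4.09 for the members.

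On the interferon gamma axis, which induces Ciita, and among the myeloid transcription factors listed with it, 2 of 10 genes were lower in eWAT on the NPD. They were Irf8, needed for one branch of dendritic cells, at 21.1 ± 0.199 against 34.5 ± 3.72 CPM (SD, n = 4 each; log2 -0.71, SE 0.16), and Irf4, at 7.97 ± 1.96 against 16.8 ± 11.6 CPM (log2 -1.07, SE 0.34). On the HPD Irf8 alone was lower (log2 -0.56, SE 0.16). In liver Irf8 and Spi1, which encodes the myeloid factor PU.1, were lower on both diets: Irf8 by -0.76 (SE 0.22) on the NPD and -1.73 (SE 0.23) on the HPD, and Spi1 by -1.28 (SE 0.29) and -1.11 (SE 0.30).

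The genes that process antigen and CD74 moved in both directions. In eWAT on the NPD 4 of 11 were lower. Ctss, the cathepsin that makes the late cuts in CD74, had a log2 fold change of -0.54 (SE 0.15), Sppl2a, the membrane protease that removes the last stub of CD74, -0.56 (SE 0.12), Ifi30, a lysosomal thiol reductase that unfolds antigens, -0.57 (SE 0.14), and Cst3, a cathepsin inhibitor, -0.49 (SE 0.11). Ctsd, an aspartic protease of the lysosome, rose on both diets, by 0.58 (SE 0.11) on the NPD and 0.62 (SE 0.11) on the HPD. On the HPD Ctsl also rose (0.40, SE 0.11) and Sppl2a fell (log2 -0.56, SE 0.12). In liver on the NPD Ctss (-1.54, SE 0.26) and Ctsc (-0.71, SE 0.20) fell while Ctsd (0.72, SE 0.14) and Ctsz (0.80, SE 0.16) rose, and on the HPD Lgmn fell (log2 -0.56, SE 0.18).

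March1, which tags class II molecules for removal from the cell surface, fell in eWAT on both diets, with log2 fold changes of -1.46 (SE 0.32) and -1.17 (SE 0.31). Of 6 costimulatory genes tested, Cd83, which shields class II from that removal, fell from 11.9 ± 6.72 to 1.88 ± 1.08 CPM (SD, n = 4 each) on the NPD (log2 -2.66, SE 0.42), and Cd40, the receptor for T cell help, from 2.67 ± 1.36 to 0.406 ± 0.183 CPM (log2 -2.68, SE 0.74). None of the 6 passed on the HPD by edgeR. In liver Cd86, a ligand of CD28, fell on the NPD (log2 -1.73, SE 0.42) and Cd83 rose on the HPD (1.39, SE 0.35). Of 4 other class II loci listed, H2-Ob, a chain of the H2-DM inhibitor H2-DO, alone passed the filter, in eWAT, at 0.371 to 3.50 CPM in Veh NPD, with a log2 fold change of -1.35 on the NPD that did not pass. Of 3 genes tested that act with CD74 as a receptor, none passed in either tissue.

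Of 9 class I pathway genes, 7 were lower with cort in eWAT on the NPD (beside 3.93% of all genes) and 3 on the HPD (beside 2.63%), with medians of -0.81 and -0.70. In liver 2 of 9 were lower on the NPD and 0 on the HPD (median 0.16), and with cort 6 of 9 were higher on the HPD than on the NPD (median 0.75, beside 5.88% of all genes in either direction).

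**Figure D4:**
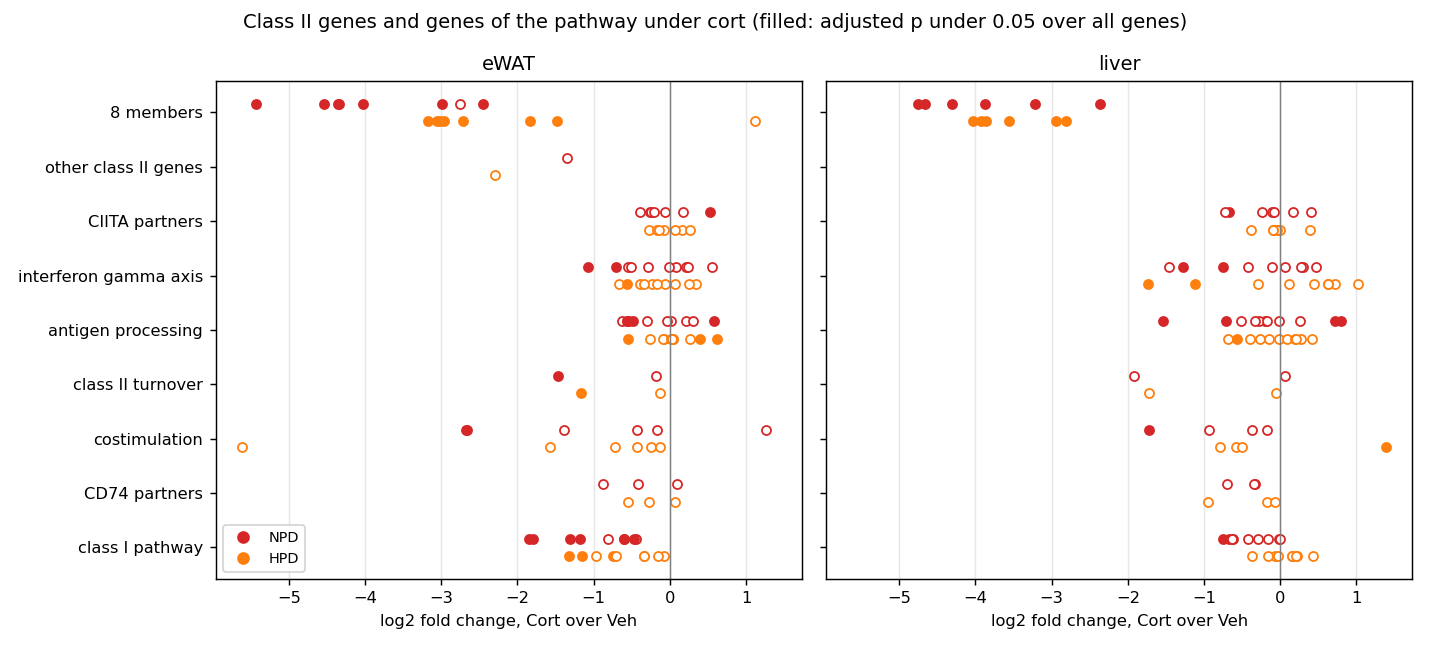
Log2 fold change of cort over veh for each class II gene and each tested gene of the pathway lists, in eWAT (left) and liver (right), on the NPD (red) and HPD (orange). Filled points passed an adjusted p under 0.05 over all genes of the tissue. The 8 members have medians of -4.18 and -2.84 in eWAT, and most other genes lie nearer to 0.

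In cort-treated liver the diet contrast called pathway genes but no member. There 5 of 36 were higher on the HPD than on the NPD and 0 lower (beside 5.88% of all genes in either direction). Irf1, an interferon-induced factor at the Ciita gene, was at 58.3 ± 11.9 against 32.5 ± 2.62 CPM (SD, n = 4 each; log2 0.84, SE 0.20, adjusted p = 0.013 by edgeR), and Cd83, Ctsl and Sppl2a were also among them. Ciita itself had no count in any of these 8 libraries, so no fold is given for it. In eWAT the same contrast called 1 of 40 (beside 0.487% of all genes in either direction), Ctsd, which was lower on the HPD (log2 -0.47, SE 0.11, adjusted p = 0.045). In veh the contrast called 0 of 40 in eWAT by edgeR's test, with 5 at an unadjusted p under 0.05, 2 by DESeq2 and 1 by limma voom. It called 0 of 36 in liver, with 7, 1 and 0.

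Markers of cells that carry class II were set beside the members. In eWAT the summed level of 10 macrophage markers was 1321 to 1542 CPM in Veh NPD, 1295 to 1566 in Veh HPD, 1183 to 1479 in Cort NPD and 1326 to 1716 in Cort HPD, so it overlapped in all 4 groups. The summed members stood at 103 to 122 per 100 CPM of macrophage markers in Veh NPD, 72.8 to 112 in Veh HPD, 4.49 to 8.65 in Cort NPD and 8.12 to 20.2 in Cort HPD. Within that list Adgre1 (log2 -0.64, SE 0.17) and Mrc1 (log2 -0.65, SE 0.14) were lower on the NPD, and 8 of 10 did not pass. On the HPD these 2 were lower as well and Cd68 was higher (log2 0.82, SE 0.18). The 5 markers of Kupffer cells, the resident macrophages of liver, summed in eWAT to 6.61 to 8.67 CPM in Veh NPD, 7.63 to 13.0 in Veh HPD, 10.2 to 32.8 in Cort NPD and 15.4 to 26.8 in Cort HPD, with Clec4f at 0 throughout, Vsig4 higher on the NPD (log2 3.46, SE 0.57) and Cd5l on the HPD (log2 2.17, SE 0.58).

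The 8 dendritic cell markers did not hold together. Their sum was 92.6 to 109 CPM in Veh NPD and 73.4 to 99.2 CPM in Cort NPD, most of it Clec10a, which macrophages also express, at 55.9 to 78.4 and 58.7 to 87.5 CPM. Of the whole list, 4 of 8 were lower on the NPD and 2 of 8 on the HPD. Xcr1, a marker of cross-presenting dendritic cells, went from 1.17 to 2.08 CPM in Veh NPD to 0 in all 4 Cort NPD libraries, and Ccr7, the receptor of migrating dendritic cells, from 0.739 to 3.34 CPM to 0 in all 4. Cd209a went from 3.40 to 11.7 CPM to at most 2.11 CPM and Itgax from 4.76 to 7.16 CPM to at most 1.51 CPM. On the HPD the sums overlapped, at 73.8 to 119 CPM with veh and 77.2 to 112 CPM with cort. There Clec9a was at 0.679 to 1.84 CPM with veh and at 0 in all 4 Cort HPD libraries. It was the only marker of the list at 0 throughout Cort HPD, and Xcr1 and Ccr7 alone were so in Cort NPD.

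T cell markers, 8 in all, summed to 25.5 to 33.5 CPM in Veh NPD, 13.8 to 22.7 in Veh HPD, 7.49 to 12.5 in Cort NPD and 6.65 to 8.50 in Cort HPD, and Thy1 was lower on both diets. B cell markers, also 8, summed to 1.71 to 34.6 CPM in Veh NPD and 0 to 3.38 CPM in Cort NPD, with Cd22 at 0 in every Cort NPD library. In Veh NPD replicate 3, the library with the B cell markers, the members summed to 1617 CPM, within the 1585 to 1866 CPM of its group, and leaving it out kept 7 members past the threshold on the NPD. The part of dendritic cells and lymphocytes in the class II difference was not tested.

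In liver, markers of the resident macrophages were lower with cort as well. The 5 Kupffer cell markers summed to 150 to 221 CPM in Veh NPD and 59.4 to 78.5 CPM in Cort NPD, with 4 of 5 lower, and to 165 to 174 CPM and 89.3 to 158 CPM on the HPD, with 3 of 5 lower. The 10 macrophage markers summed to 306 to 414 and 152 to 259 CPM on the NPD, and to 280 to 330 and 166 to 317 CPM on the HPD. Cort HPD replicate 1 gave the highest of these cort values, 158 CPM for Kupffer and 317 CPM for macrophage markers, and the other 3 libraries were at 89.3 to 116 and 166 to 184 CPM. The 6 hepatocyte markers summed to 62053 to 92348 CPM in Veh NPD, 55763 to 65303 in Veh HPD, 85127 to 107732 in Cort NPD and 125042 to 226504 in Cort HPD, the last also replicate 1. The summed class II members stood at 80.2 to 122 per 100 CPM of Kupffer markers in Veh NPD against 9.08 to 19.2 in Cort NPD, and at 56.2 to 87.4 against 6.49 to 10.2 on the HPD. The dendritic cell markers in liver summed to 5.97 to 7.22 CPM in Veh NPD and 4.39 to 8.55 CPM in Cort NPD, so they overlapped. On the HPD the sums were lower with cort, at most 5.51 CPM against at least 5.52 CPM with veh. Of these markers, 2 of 8 passed the filter. On the NPD 0 of these 2 passed the threshold (median log2 0.28), and on the HPD 1 was lower (median log2 -1.06). Xcr1, Itgax and Ccr7 were at 0 in every Cort NPD library, and Cd209a alone was so in Cort HPD. B cell markers summed to 0.761 to 2.77 CPM in Veh NPD and 0.227 to 0.669 CPM in Cort NPD, and to 1.73 to 3.11 and 0.0581 to 0.297 CPM on the HPD, with no overlap. T cell markers summed to 2.08 to 3.56 and 0.0757 to 1.40 CPM on the NPD and to 1.23 to 3.85 and 0.116 to 0.765 CPM on the HPD. The part of Kupffer cells, dendritic cells, lymphocytes and hepatocytes in the liver values was not tested.

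**Figure D5:**
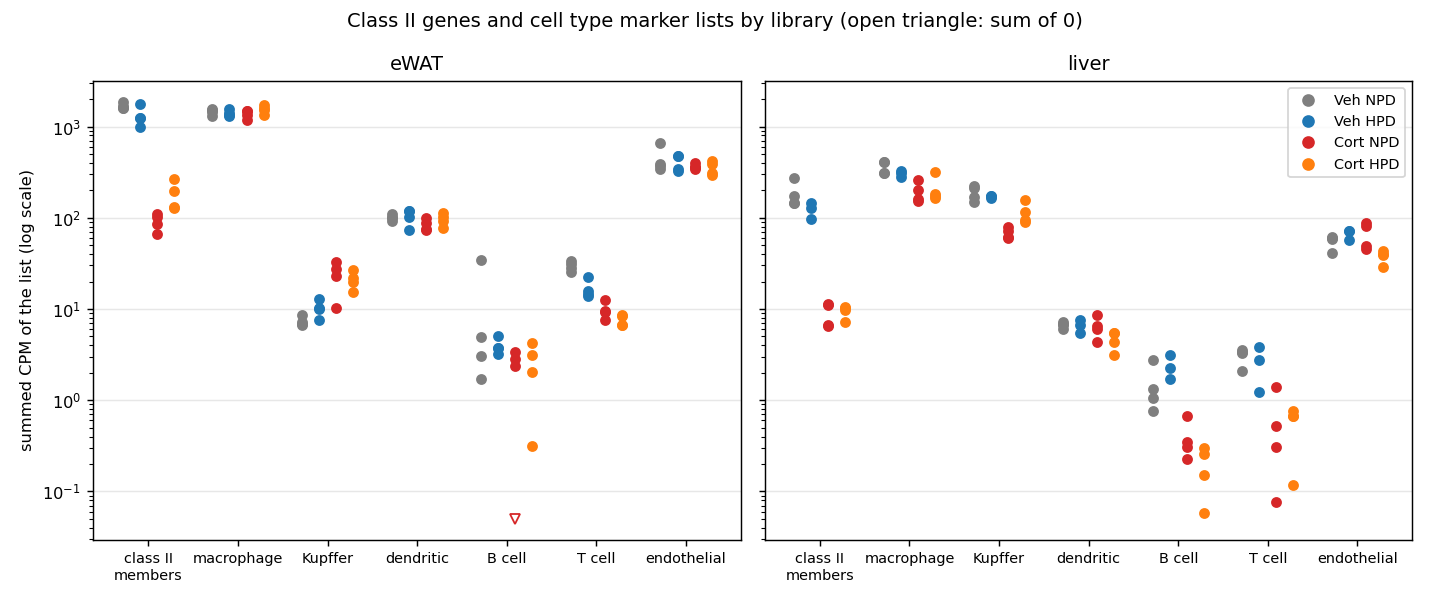
Summed CPM (log scale) of the 8 class II genes and of 6 lists of cell type markers in each library of eWAT (left) and liver (right), coloured by group, without liver Veh HPD replicate 4. In eWAT the members fall from 984 to 1866 CPM with veh to 66.2 to 268 CPM with cort while the macrophage sums stay between 1183 and 1716 CPM, and in liver the Kupffer sums fall as well.

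Across the 16 eWAT libraries, the 5 genes outside the set whose centred log2 CPM lay nearest to the mean profile of H2-Aa, H2-Ab1, H2-Eb1 and Cd74 were Retnla, Fcrls, Ccl5, Ccr7 and BC035044, with root mean square differences of 0.64, 0.72, 0.76, 0.78 and 0.79 on the log2 scale, beside a median of 1.94 over all genes tested. The 4 genes that make the profile lie at 0.14 to 0.21 of it, H2-DMa at 0.71, H2-DMb1 at 0.89, Ciita at 1.03 and H2-DMb2 at 1.56. Retnla, a secreted resistin-like protein, was the most abundant of the 5, at 1313 CPM in Veh NPD, 959 in Veh HPD, 175 in Cort NPD and 214 in Cort HPD. Fcrls, a scavenger receptor of myeloid cells, was at 36.5, 30.5, 5.15 and 7.19 CPM, and Ccl5, a chemokine, at 13.6, 8.43, 1.33 and 1.82 CPM. The log2 fold changes of these 3 on the NPD were -2.91, -2.82 and -3.34. Ccr7 was at 2.03, 1.19, 0 and 0.257 CPM and BC035044 at 2.07, 1.46, 0.0809 and 0.0807 CPM, a log2 fold change of -4.58 on the NPD for the latter.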

How the data were processed

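Counts per gene came from 32 libraries of the Lexogen QuantSeq 3′ kit (FWD) and were deposited by the authors as raw, unnormalised counts for 47643 Ensembl IDs. The labels name GRCm38/mm10, R 4.0.3 and limma. The aligner, the counter, the annotation and the strand setting are not given in the sources used here. Symbols were matched for 47224 IDs from GENCODE vM21.

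A separate model per tissue was fitted in edgeR 4.0.16 (R 4.3.3): filterByExpr (minimum count 10, minimum total 15), TMM scaling, 1 mean per group, a robust quasi-likelihood test, and Benjamini-Hochberg adjustment over all genes kept (15187 in eWAT, 12391 in liver), called at an adjusted p under 0.05. CPM are deposited counts over TMM-scaled library totals. Each SE was derived from the test, as the size of the log2 fold change over the square root of its F statistic. The script was tested on simulated data. DESeq2 1.42.0, limma voom (limma 3.58.1), other scalings, no filter, a replicate block and each library left out were the alternatives.

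The 8 members were taken by symbol, and the members and gene lists were chosen with earlier results of these data known. Named beyond the members are genes of the lists that passed the threshold in a comparison described, up to 4 a direction and list by smallest p, defining markers that were at 0 or moved with a result, and the 5 most similar genes by root mean square difference of centred log2 CPM (prior count 2). One gene of the pathway lists is not reported here by name. The liver library Veh HPD replicate 4 was left out of the main fit. The labels do not say whether the libraries of a group come from separate mice, so p-values measure the spread between these samples. Of 48 pairs of libraries of a group, no pair was identical, and the mean chi-squared per gene was 15.3 or more. Exact 95% intervals of count ratios cover counting error only, and a floor of 3 counts a library was used. Promoters are RefSeq sequences (GRCm38.p6).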

Additional observations from a re-analysis of the deposited data

Results flagged for a closer look

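Of 54 groups of 4 libraries, 7 had a class II gene with 1 library far from the other 3. No rate by chance is set beside this. The genes share the same libraries, and a group with counts in 1 library only is always flagged. In eWAT these were H2-Aa in Veh HPD replicate 3 (538 CPM, the highest), Ciita in Cort NPD replicate 2 (0.291 CPM, the 4 counts of a group otherwise at 0), H2-DMb1 in Cort NPD replicate 1 (6.11 CPM), and in Cort HPD replicate 4 both H2-DMa (14.9 CPM) and H2-DMb2 (22.4 CPM). In that last library the epididymis markers summed to 5879 CPM, and their part in these values was not tested. In liver they were H2-Aa in Cort HPD replicate 1 (5.93 CPM) and H2-DMb2 in Cort NPD replicate 4 (0.0608 CPM, a single count).

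H2-Ab1 in eWAT differed between the diets in its cort effect, by 1.40 on the log2 scale by the interaction term, HPD minus NPD. This pattern was known when the genes were chosen.

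The liver library Veh HPD replicate 4, which takes no part in the comparisons, was above every other veh liver library for Cd74 (72.2 CPM), Ciita (0.409 CPM, 8 counts), H2-DMa (4.96 CPM) and H2-DMb1 (5.73 CPM).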

How the results depend on the processing

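Of 228 recomputed counts of members past the threshold, 209 were within 1.5 times the value given, and the counts for cort against veh were among these in both tissues under every alternative. For HPD against NPD in cort in eWAT, where 1 member passed, DESeq2 called 3, limma voom 0 and the fit of only the 2 groups compared 2, and leaving out 1 library gave 1 to 3. For the eWAT interaction, with 1, DESeq2 called 2, limma voom 0, library totals without TMM factors 0 (an alternative chosen after seeing the data), and leaving out 1 library 0 to 2. The causes were not tested.

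Of 1591 recomputed log2 fold changes of single members, 1540 kept their direction and their side of the threshold, 11 lost and 13 gained a call, and 27 changed sign, all of values that had not passed. H2-DMb2 in eWAT on the HPD was -0.81 by limma voom, -0.20 with the replicate block and -1.64 to 1.52 with 1 library left out. The other sign changes were of values between -0.23 and 0.27 in the main fit. For HPD against NPD in veh, H2-DMb1 in eWAT ran from -0.18 to 0.095 and H2-DMa in liver from -0.25 to 0.36 with 1 library left out, and Cd74 in liver was 0.24 with all 16 libraries. For HPD against NPD in cort in liver, H2-Eb1 was -0.073 without TMM factors and -0.18 to 0.30 with 1 library left out, and H2-DMb1 was -1.11 to 0.21. For the liver interaction, Cd74 ran from -0.23 to 0.15 and H2-DMb1 from -0.64 to 0.68 with 1 library left out, and H2-DMb1 was -0.0062 by limma voom and -0.032 with all 16 libraries. With cort on the NPD, H2-DMb2 in eWAT passed without Cort HPD replicate 4 (-2.74) and in the fit of 2 groups (-2.76). Ciita passed on the HPD by DESeq2 (-3.08). With no filter on low counts 7 members were called in liver on the NPD, H2-DMb2 being added.

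Counts over all genes moved by over 1.5 times in several contrasts. With 1 library left out, they ran from 581 to 1265 for cort on the HPD in eWAT (925), from 5 to 64 for the diet in veh (9), from 26 to 124 for the diet in cort (74) and from 0 to 6 for the interaction (2). In liver they ran from 714 to 1222 for cort on the HPD (1226), from 5 to 40 for the diet in veh (21), from 356 to 757 for the diet in cort (729) and from 2 to 39 for the interaction (14). Under the other alternatives they spanned 4 to 126, 67 to 195 and 0 to 14 for the diet in veh, the diet in cort and the interaction in eWAT, and 7 to 113, 371 to 1075 and 1 to 130 in liver, and 998 to 1889 for cort on the NPD in liver (1565), the lowest with all 16 libraries.

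The replicate numbers did not pair the libraries: deviations of same-numbered libraries had a median correlation of -0.012 over 24 pairs in eWAT and -0.017 over 21 in liver. With the numbers as a replicate block, the counts of members past the threshold were 7, 6, 0, 1 and 1 in eWAT and 6, 6, 0, 0 and 0 in liver, as without it. Of the pathway genes the block called 10, 5, 0, 0 and 0 in eWAT (11, 5, 0, 1 and 0 without it, the lost call for the diet in cort being Ctsd) and 8, 6, 0, 4 and 0 in liver (8, 4, 0, 5 and 0). Low counts limit Ciita, H2-DMb2 and, in cort-treated liver, H2-DMa and H2-DMb1.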
